A study of Rattus norvegicus with 9 samples.

Results

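The 38 genes described here build and steer the growing axon. They were chosen by symbol from 32623 entries of 1 expression table, and each of the 38 symbols had exactly 1 entry. A filter on low counts kept 37 of them among 16284 tested genes, and Sprr1a was the member left out. The cells were primary cortical neurons from wild-type Wistar rat embryos (embryonic day 16-18) grown on glass coated with conducting indium tin oxide. They formed 3 groups of 3 libraries. ACS neurons received alternating current of 3 μA at 20 Hz for 20 min a day over 7 days. DCS neurons received direct current of 3 μA for 20 min a day over 7 days (their labels call the group DES and also give 20 Hz), and control neurons received no current. All groups carry the label DIV 7, while the growth protocol runs to day 14, so the day of collection is not clear. It is not stated whether replicate libraries derive from independent cultures, and the p-values therefore reflect the variation among these libraries, which may be technical. The comparisons ask whether a weak current, alternating or direct, alters the expression of genes of axon growth.

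An axon grows by a growth cone, a motile tip in which actin filaments pull forward and microtubules follow. Gap43, Basp1 and Marcks coat the inner membrane of the growth cone, stathmins loosen microtubules, and collapsin response mediator proteins (CRMPs) carry guidance signals to tubulin. Microtubule-associated proteins and neurofilaments then stabilise the shaft, and adhesion molecules such as L1cam hold it to its neighbours. After injury, peripheral neurons switch several of these genes on again together with factors such as Sox11 and Klf6. Rtn4 (Nogo) and its receptor Rtn4r restrain outgrowth.

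The libraries held 49039412 to 68690760 estimated counts, with 49039412 to 52938628 in ACS, 52370330 to 68133858 in DCS and 53910745 to 68690760 in control. Low counts pile up at 4, 8 and 12 (34.1% of counts from 1 to 15, where an even spread gives 20%), so a sequenced fragment may add about 4 counts. The 38 genes took 2.92% to 3.18% of the counts of a library. Their summed level was 8439 to 8805 FPKM (fragments per kilobase of exon, scaled to library size, a unit that allows genes to be compared) in ACS, 7978 to 8632 FPKM in DCS and 8150 to 8555 FPKM in control. The 8 neuronal markers summed to 1425 to 1486 FPKM in ACS, 1324 to 1479 FPKM in DCS and 1222 to 1433 FPKM in control. Tubb3 had 1746 to 2232 CPM (the count relative to the scaled size of its library), and the other neuronal markers had 27.7 to 408 CPM. Astrocyte, oligodendrocyte lineage, microglial and progenitor markers were present too, with Gfap at 189 to 245 CPM and Mki67 at 171 to 216 CPM. In contrast, 4 endothelial markers summed to at most 0.557 FPKM. In such bulk RNA, fewer cells of a type and less RNA per cell cannot be told apart.

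These were abundant transcripts. Of the 38 genes, 34 had a mean of at least 10 FPKM and 19 a mean of at least 100 FPKM. Stmn1, which binds free tubulin, was at the top with mean levels of 1340 FPKM in ACS, 1268 FPKM in DCS and 1317 FPKM in control. Crmp1, Stmn2, Gap43 and Map1b followed between 609 and 749 FPKM as group means. Gap43 was at 726 FPKM in ACS, 694 FPKM in DCS and 653 FPKM in control. At the other end stood Nefh and Prph, near 1 FPKM. Nefh, the heavy neurofilament subunit of mature axons, had mean levels of 1.47 FPKM in ACS, 1.41 FPKM in DCS and 1.47 FPKM in control. Prph, a filament protein best known from peripheral neurons, had 1.33 FPKM in ACS, 1.00 FPKM in DCS and 0.998 FPKM in control. Sprr1a, which injured peripheral neurons switch on, had a count of 8 in ACS 1 and a count of 0 in the other 8 libraries, where a count of 0 allows up to 12 counts (3 fragments of about 4 counts each, counting error only).

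**Figure D1:**
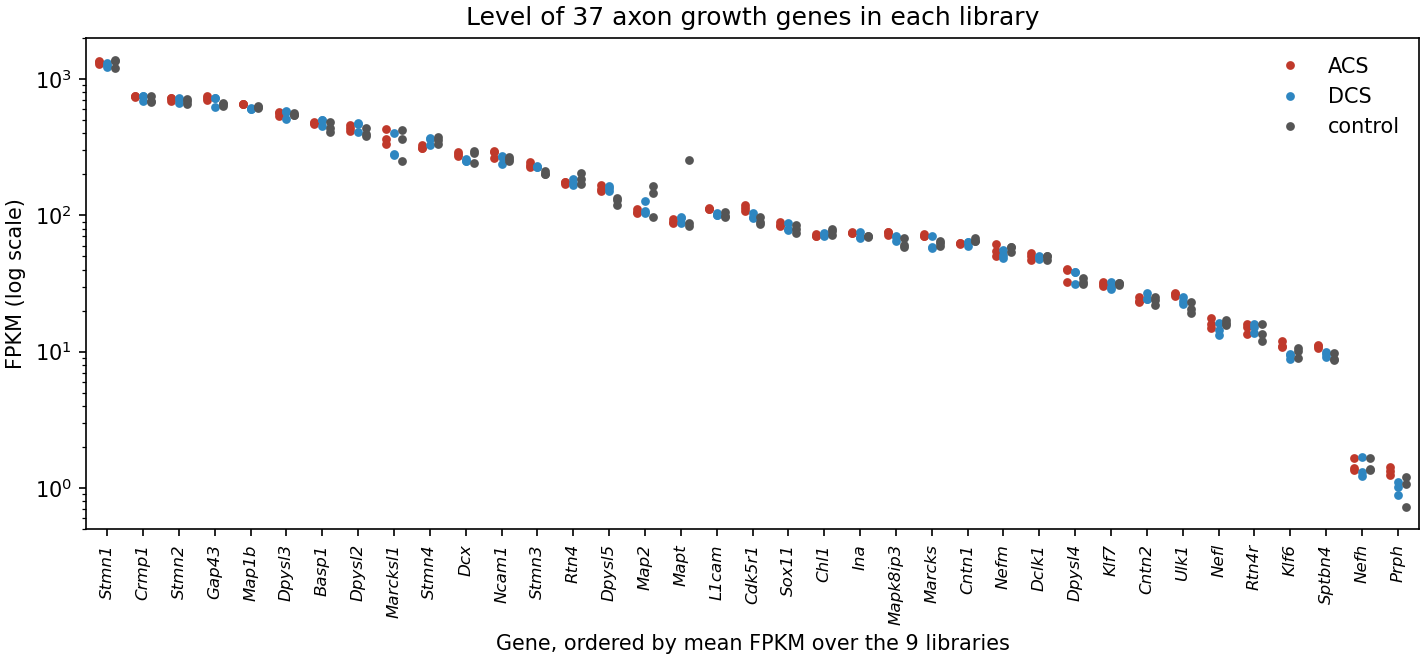
FPKM of 37 genes (log scale, vertical axis) in each of 9 libraries, ordered by their mean (horizontal axis), with ACS, DCS and control points side by side. Levels run from the top value of Stmn1 to near 1 for Nefh and Prph, the groups lie close together for nearly every gene, and the control point of Mapt at 257 FPKM stands apart.

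Under ACS, 7 of the 37 tested genes were higher than in control neurons and none was lower at an adjusted p under 0.05. They were Ulk1, Cdk5r1, Dpysl5, Sptbn4, Mapk8ip3, Stmn3 and L1cam, with changes of 1.13 to 1.28 times. This is 18.9% of the tested members, against 2.83% of all tested genes that were higher and 1.33% that were lower. Among the 7234 genes with a mean of at least 10 FPKM, 4.29% were higher. Before adjustment, 13 members were higher and 1 lower (Stmn4) at p under 0.05, against 10.8% and 10% of all tested genes (edgeR's quasi-likelihood F test, as for all p-values here). The median log2 fold change of the 37 was 0.10 against -0.003 over all tested genes, and 29 of the 37 lay above 0, against 49.5% of all tested genes. In 16 of them (43.2%) all 3 ACS libraries lay above all 3 control libraries, against 14% of all tested genes and 16.8% of those with at least 10 FPKM. In 1 of them, Cntn1, all ACS libraries lay below all controls, against 13% of all tested genes. The members were chosen with earlier results of these data known, so these shares describe the list and do not test it.

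Ulk1, the kinase that starts autophagy and whose worm counterpart unc-51 is needed for axon growth, had 137, 131 and 137 CPM in ACS, 128, 119 and 112 CPM in DCS and 97.9, 104 and 116 CPM in control. All ACS libraries lay above all others, and the lowest DCS library lay below the highest control library. The log2 fold change of ACS over control was 0.35 (standard error 0.07, adjusted p = 0.0250).

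Cdk5r1 encodes p35, the activator of the neuronal kinase Cdk5, which phosphorylates tau and CRMPs. It had 144, 149 and 134 CPM in ACS, 130.0, 119 and 119 CPM in DCS and 108, 112 and 119.7 CPM in control. ACS stood above both other groups without overlap, with a log2 fold change of 0.33 over control (standard error 0.06, adjusted p = 0.0182). Mapk8ip3, a scaffold that ties JNK signalling to kinesin transport along the axon, had 301, 311 and 315 CPM in ACS, 292, 284 and 262 CPM in DCS and 244, 251 and 276 CPM in control. Its log2 fold change of ACS over control was 0.27 (standard error 0.06, adjusted p = 0.0318). Here too ACS lay above both other groups, by a small gap to the highest DCS library.

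Sptbn4, the beta-IV spectrin that anchors channels at the axon initial segment, had 101, 102 and 97.3 CPM in ACS, 89.6, 86.3 and 80.6 CPM in DCS and 78.8, 80.6 and 87.7 CPM in control. DCS and control overlapped, and ACS lay above both, with a log2 fold change of 0.28 over control (standard error 0.06, adjusted p = 0.0277).

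Dpysl5 (CRMP5) was the member with the smallest adjusted p, and the only CRMP to pass. It had 798, 839 and 768 CPM in ACS, 765, 794 and 805 CPM in DCS and 601, 677 and 640.4 CPM in control. ACS and DCS overlapped each other, and both lay above every control library. The log2 fold change was 0.33 for ACS over control (standard error 0.05, adjusted p = 0.0104) and 0.30 for DCS over control (standard error 0.05, adjusted p = 0.510).

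Stmn3, a stathmin of growing neurites, had 279, 291 and 266 CPM in ACS, 265, 263 and 264 CPM in DCS and 238, 236 and 247 CPM in control. The 3 groups did not overlap, with DCS in the middle, and ACS exceeded control by 0.22 on the log2 scale (standard error 0.04, adjusted p = 0.0246). L1cam, the adhesion molecule that guides and bundles axons, had 691, 677 and 692 CPM in ACS, 631, 610.5 and 602 CPM in DCS and 606, 588 and 631 CPM in control. DCS and control shared a range, ACS lay above it, and the log2 fold change over control was 0.17 (standard error 0.04, adjusted p = 0.0355).

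In all 7 the DCS mean lay between the ACS and control means. ACS lay above DCS without overlap in 6 of the 7, against 11.2% of all tested genes. DCS lay above control without overlap in 2 (Dpysl5 and Stmn3), against 5.59%. The 7 were picked for high ACS and low control values, which favours both patterns and a DCS mean in the middle. Control 3 was the highest control library in 6 of the 7 and control 1 the lowest in 5. In the 126 refits of these 7 genes the log2 fold changes were 0.15 to 0.42. All their ACS libraries lay above all controls, so the sign could hardly change and is no measure of stability. The calls did change. With ACS 2 left out, 0 members passed. With ACS 1, control 1 or control 2 left out only 1 passed each time (Dpysl5), with ACS 3 left out 3 passed, and with DCS 2 left out 5 passed. The calls over all tested genes fell in these refits too. They went from 678 to 175 without ACS 2, 191 without ACS 1, 163 without control 1 and 138 without control 2. Without ACS 3 there were 303, and without DCS 2 there were 413. Dpysl5 kept its call in 8 of 9 such refits, Cdk5r1 and Stmn3 in 5, Ulk1 and Sptbn4 in 4, and Mapk8ip3 and L1cam in 3. L1cam also lost its call without a filter on low counts (adjusted p = 0.0638), with only the 6 ACS and control libraries (0.0570) and with limma on FPKM (0.0504 to 0.0513), Sptbn4 with limma on FPKM (0.0531 to 0.0539) and Stmn3 with only the 6 libraries (0.0503).

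**Figure D2:**
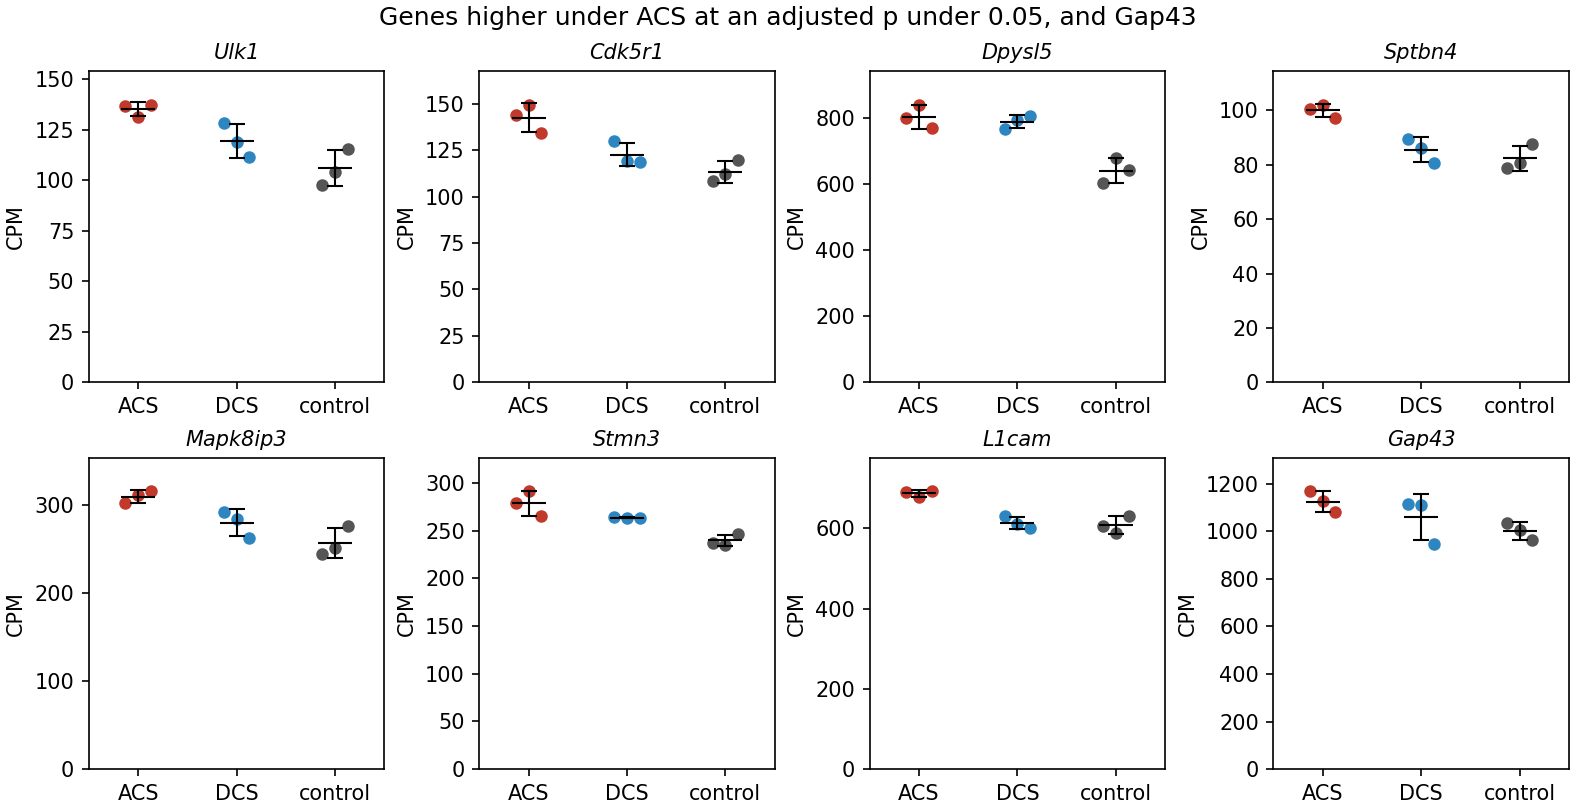
CPM (vertical axes, from 0) of the 7 genes higher under ACS and of Gap43 in ACS, DCS and control neurons. Points are libraries, and bars give the mean and SD of 3 libraries. The ACS points lie above the control points in all 8 panels, and the DCS mean lies between the ACS and control means.

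The promoters of the 4 genes with the largest of these changes are shown. Whether these genes share a control was not tested. RefSeq promoter windows of 300 bases (250 before and 50 after the gene start, build GRCr8) matched 27 of the 38 members by symbol and 6 of the 7 higher genes. Motifs were searched on both strands: AP-1 (TGANTCA), the cAMP response element CRE (TGACGTCA), its short form TGACG (which lies within the full CRE), the EGR forms GCGTGGGCG and GCGGGGGCG, the GC box GGGCGG and the E-box CACGTG. In the sequences, capitals mark the matches. The windows are Ulk1 at chr12:51511242-51511541 on the plus strand, Cdk5r1 at chr10:65981765-65982064 on the plus strand, Dpysl5 at chr6:31379299-31379598 on the minus strand and Sptbn4 at chr1:91864791-91865090 on the minus strand, each written 5′ to 3′ in the direction of the gene.
Ulk1: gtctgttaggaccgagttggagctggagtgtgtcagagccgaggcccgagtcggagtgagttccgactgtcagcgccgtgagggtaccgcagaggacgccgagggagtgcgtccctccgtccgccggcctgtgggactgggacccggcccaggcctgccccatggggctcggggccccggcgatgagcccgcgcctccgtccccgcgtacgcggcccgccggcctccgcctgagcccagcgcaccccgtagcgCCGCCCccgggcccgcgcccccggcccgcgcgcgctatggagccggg
Cdk5r1: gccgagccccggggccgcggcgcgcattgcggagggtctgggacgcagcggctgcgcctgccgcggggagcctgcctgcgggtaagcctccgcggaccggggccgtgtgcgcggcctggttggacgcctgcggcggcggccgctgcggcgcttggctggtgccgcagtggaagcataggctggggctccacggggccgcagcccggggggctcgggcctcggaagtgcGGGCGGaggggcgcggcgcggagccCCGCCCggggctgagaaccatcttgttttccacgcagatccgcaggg
Dpysl5: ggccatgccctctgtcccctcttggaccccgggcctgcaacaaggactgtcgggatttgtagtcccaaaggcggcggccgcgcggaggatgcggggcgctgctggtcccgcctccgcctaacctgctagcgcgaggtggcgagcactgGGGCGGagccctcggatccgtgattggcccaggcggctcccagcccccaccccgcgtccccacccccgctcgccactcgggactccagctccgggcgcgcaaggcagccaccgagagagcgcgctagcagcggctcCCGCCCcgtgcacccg
Sptbn4: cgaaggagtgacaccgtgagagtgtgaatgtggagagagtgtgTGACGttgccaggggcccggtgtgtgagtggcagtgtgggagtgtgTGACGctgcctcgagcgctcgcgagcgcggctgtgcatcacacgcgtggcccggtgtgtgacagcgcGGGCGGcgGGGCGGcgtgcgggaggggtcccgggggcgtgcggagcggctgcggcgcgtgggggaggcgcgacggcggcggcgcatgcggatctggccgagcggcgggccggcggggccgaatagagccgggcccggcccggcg
All 6 matched windows (these 4, Mapk8ip3 and Stmn3) held at least 1 GC box, which 33.1% of all 33469 promoter windows hold. Sptbn4 and Mapk8ip3 each held 2 short CRE forms, which 21.2% of all windows hold. No match to AP-1 (7.33% of all windows), the full CRE (1.83%), the EGR forms (0.544% and 2.73%) or the E-box (6.42%) lay in the 6 windows. Their GC content was 60.0% to 78.0%, against a median of 51.7% over all windows. The shares over all windows were not matched for GC content, and promoters of members that did not pass were not counted apart. A match is a description of letters and not a binding site.

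Gap43, the growth-associated protein that marks the axon of developing neurons, did not pass the test. It had 1168, 1127 and 1079 CPM in ACS, 1116, 1111 and 946 CPM in DCS and 1036, 1005 and 962 CPM in control. All ACS libraries lay above all control libraries, and DCS spanned both. The log2 fold change of ACS over control was 0.17 (95% interval 0.03 to 0.31, adjusted p = 0.168), that of DCS over control 0.08 (95% interval -0.06 to 0.22, adjusted p = 0.776). Leaving out any 1 library gave 0.14 to 0.20 for ACS over control, with adjusted p-values of 0.0580 to 0.378.

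The other growth cone membrane proteins gave values of the same size. Marcks, a substrate of protein kinase C that binds actin, had 312, 320.2 and 308 CPM in ACS, 253, 248 and 298 CPM in DCS and 275, 279.5 and 256 CPM in control, a log2 fold change of 0.21 over control (adjusted p = 0.108). ACS lay above both groups, and the value passed without DCS 3 (adjusted p = 0.0297) and with DESeq2 (adjusted p = 0.0202). Basp1, a relative of Gap43 in function, had 513, 516 and 500.1 CPM in ACS, 531, 529 and 468 CPM in DCS and 462, 434 and 509.5 CPM in control, and the groups overlapped.

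Among stathmins and CRMPs, only Stmn3 and Dpysl5 passed, and the dominant members did not. Stmn1 had 2613, 2546 and 2465 CPM in ACS, 2467, 2383 and 2252 CPM in DCS and 2610, 2567 and 2245 CPM in control. Its log2 fold change of ACS over control was 0.04 (95% interval -0.09 to 0.17), so a change as large as that of Ulk1 lay outside the interval. Stmn2, the stathmin of axon maintenance, had 1569, 1568 and 1484 CPM in ACS, 1546, 1515 and 1397 CPM in DCS and 1537, 1493 and 1397 CPM in control, a log2 fold change of 0.06 (95% interval -0.05 to 0.17). Stmn4 was the stathmin with values in the other direction, with 489, 457 and 461 CPM in ACS, 535, 537 and 472 CPM in DCS and 553, 521 and 483 CPM in control. ACS and control overlapped there, with a log2 fold change of -0.15 (adjusted p = 0.230). By FPKM, Stmn1 made up 51.4% of the summed stathmin level in ACS, 49.7% in DCS and 51.2% in control, and Stmn3 made up 9.03% in ACS, 8.91% in DCS and 8.01% in control.

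The 5 CRMPs all had log2 fold changes above 0 for ACS over control, from 0.03 (Dpysl3) to 0.33 (Dpysl5). Dpysl2 (CRMP2), which carries tubulin to the axon tip, had 1123, 1160 and 1059 CPM in ACS, 1200, 1183 and 1018 CPM in DCS and 967, 1003 and 1099 CPM in control. Dpysl3 had 1600, 1571 and 1491 CPM in ACS, 1606, 1560 and 1368 CPM in DCS and 1498, 1515 and 1540 CPM in control. In both genes the ACS and control libraries overlapped. Crmp1 had 2205, 2233 and 2249 CPM in ACS, 2226, 2226 and 2017 CPM in DCS and 2029, 2048 and 2183 CPM in control, and ACS lay just above control without passing the test (adjusted p = 0.272). Dpysl4, the least abundant of the family, had 111, 108 and 88.4 CPM in ACS, 105, 103 and 84.3 CPM in DCS and 85.0, 87.8 and 93.3 CPM in control, so the third library of both stimulated groups lay among the controls or below them. Dpysl5 made up 8.14% of the summed CRMP level in ACS, 8.19% in DCS and 6.98% in control.

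**Figure D3:**
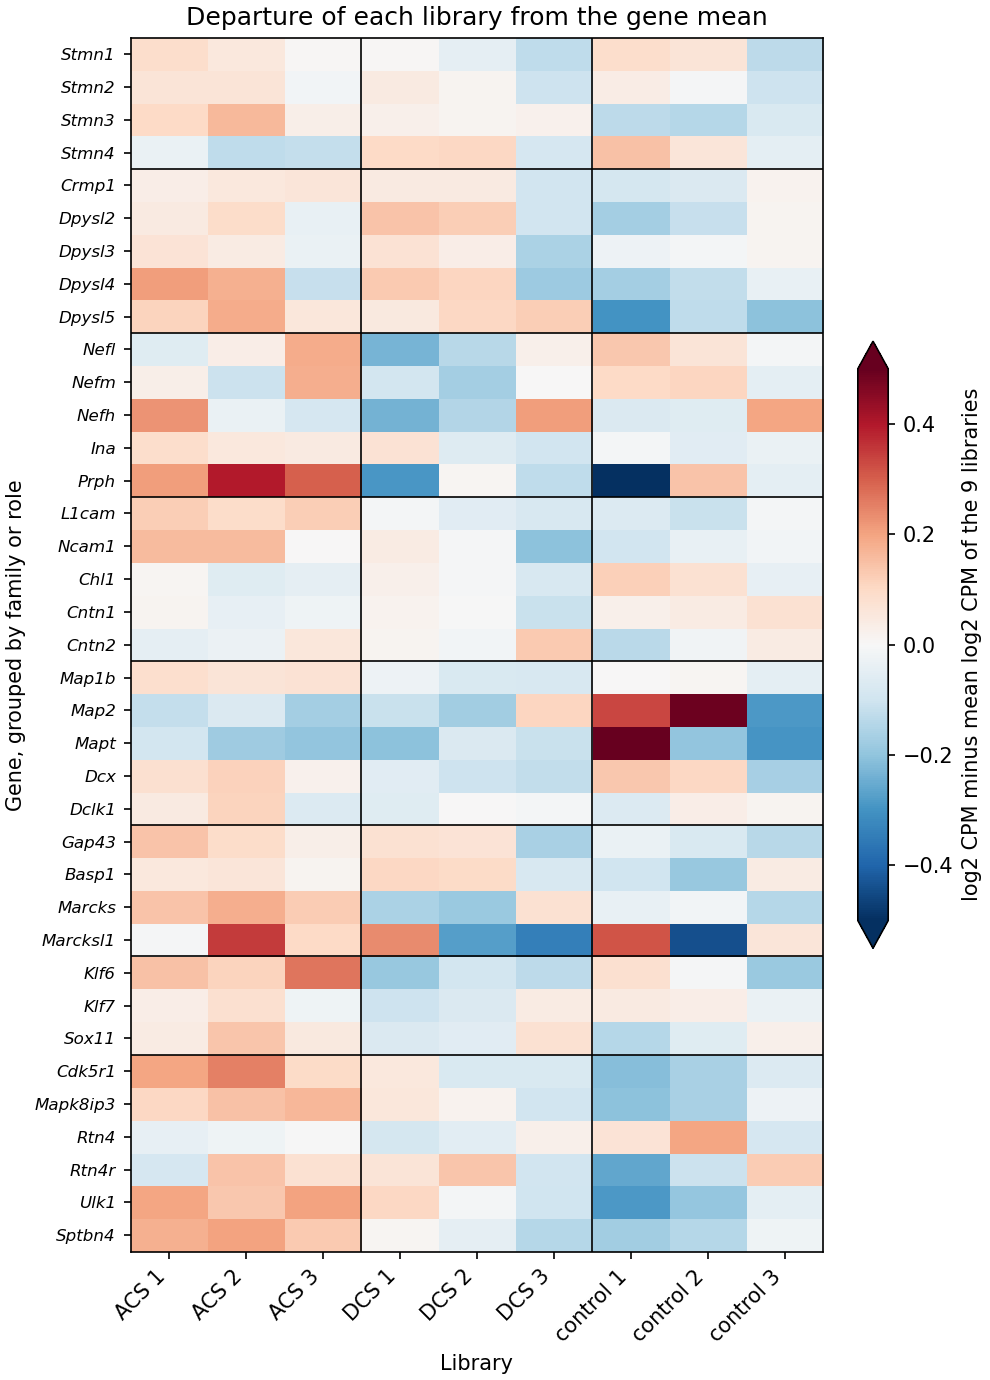
Departure of each library (columns) from the mean log2 CPM of the 9 libraries for 37 genes (rows, grouped by family or role), with red above and blue below the mean and the colour scale ended at 0.5 in either direction. The rows of Cdk5r1, Mapk8ip3, Ulk1 and Sptbn4 are red in all 3 ACS columns. Mapt and Map2 owe their strongest colours to 1 or 2 libraries, while Marcksl1 has strong colours in each of the 3 groups.

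None of the 5 neuronal intermediate filaments passed in any comparison. Ina, the alpha-internexin of young axons, made up 49.9% of their summed FPKM in ACS, 50.7% in DCS and 48.1% in control. It had 363, 354 and 352 CPM in ACS, 359, 326 and 319.6 CPM in DCS and 339, 328 and 333 CPM in control, a log2 fold change of 0.10 for ACS (adjusted p = 0.272). Nefm, the medium subunit, had 177, 162 and 197 CPM in ACS, 163, 155 and 174 CPM in DCS and 186, 188 and 168 CPM in control, with overlap throughout. Nefl, the light subunit on which the other neurofilaments assemble, had 52.8, 56.2 and 62.5 CPM in ACS, 46.8, 50.0 and 55.9 CPM in DCS and 60.4, 57.5 and 54.7 CPM in control. Its log2 fold changes were -0.01 for ACS over control (95% interval -0.19 to 0.17) and -0.18 for DCS over control (95% interval -0.36 to 0.01, adjusted p = 0.695). Prph had the largest fitted value of all members and the widest error among those above 0, a log2 fold change of 0.43 for ACS over control (standard error 0.22, adjusted p = 0.293). Its levels were 2.30, 2.62 and 2.45 CPM in ACS, 1.63, 2.01 and 1.82 CPM in DCS and 1.33, 2.20 and 1.92 CPM in control, and the ACS libraries lay above all others.

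Of the immunoglobulin adhesion molecules, L1cam passed and the other 4 did not. Ncam1, the neural cell adhesion molecule, had 1366, 1369 and 1227 CPM in ACS, 1261, 1219 and 1064 CPM in DCS and 1146, 1193 and 1212 CPM in control. ACS lay above control without overlap, with a log2 fold change of 0.16 (adjusted p = 0.210). Chl1, the close homolog of L1cam, had 278, 265 and 268 CPM in ACS, 281, 276 and 262 CPM in DCS and 300, 291 and 269 CPM in control. Cntn1, a contactin anchored in the membrane by lipid, had 261, 251 and 255 CPM in ACS, 262, 258 and 239 CPM in DCS and 263, 266 and 273 CPM in control. Both stimulated groups lay below control in Cntn1 by a log2 fold change of -0.07 for ACS (adjusted p = 0.423) and -0.08 for DCS (adjusted p = 0.705). Cntn2, the transient axonal glycoprotein TAG-1, had 123, 124 and 132 CPM in ACS, 128, 125 and 139 CPM in DCS and 116, 125 and 130.3 CPM in control, with overlap in every comparison.

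The microtubule-associated proteins hold the values that depend most on individual libraries. Mapt (tau) had 808, 762 and 750.0 CPM in ACS, 746, 819.6 and 796 CPM in DCS and 2193, 752 and 701 CPM in control. Control 1 was thus 3.02 times the mean of the other controls, and Mapt was the only 1 of 7234 genes with at least 10 FPKM that exceeded 2 times the next highest library in control 1. By the same rule ACS 1, ACS 2, ACS 3, DCS 1 and DCS 2 had 1 gene each, and DCS 3, control 2 and control 3 had 0. The log2 fold change of ACS over control was -0.65 (standard error 0.36, adjusted p = 0.333) with all libraries and 0.09 without control 1 (adjusted p = 0.489), and that of DCS over control was -0.63 with all libraries and 0.12 without control 1.

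Map2, the protein of dendritic microtubules, had 1118, 1154 and 1077 CPM in ACS, 1124, 1074 and 1308 CPM in DCS and 1528, 1703 and 995 CPM in control. Controls 1 and 2 lay above every stimulated library and control 3 below every one. The log2 fold change of ACS over control was -0.34 (adjusted p = 0.270) and passed only without control 3 (-0.53, adjusted p = 0.00742). Marcksl1, a small relative of Marcks, also varied within groups, with 535, 685 and 577 CPM in ACS, 633, 444 and 424 CPM in DCS and 669, 396 and 561 CPM in control.

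**Figure D4:**
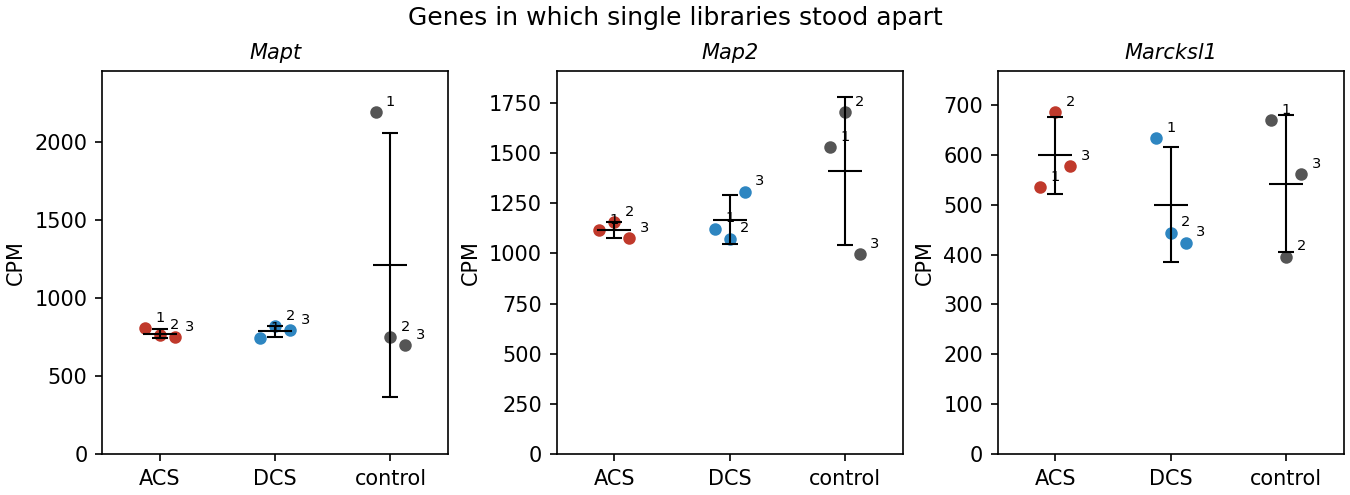
CPM (vertical axes, from 0) of Mapt, Map2 and Marcksl1 in ACS, DCS and control neurons, with the replicate number beside each point and bars for the mean and SD of 3 libraries. Mapt is at 2193 CPM in control 1 and between 701 and 819.6 CPM in the other 8 libraries, Map2 is high in controls 1 and 2, and Marcksl1 spreads in every group.

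The remaining microtubule-associated proteins were steadier. Map1b, abundant in growing axons, had 8200, 8095 and 8153 CPM in ACS, 7608, 7357 and 7319 CPM in DCS and 7750, 7799 and 7487 CPM in control. ACS lay above both other groups by log2 fold changes of only 0.09 over control (standard error 0.03, adjusted p = 0.136) and 0.13 over DCS (standard error 0.03, adjusted p = 0.0798). Dcx, the doublecortin of migrating neurons, had 2607, 2673 and 2503 CPM in ACS, 2373, 2296 and 2266 CPM in DCS and 2710, 2653 and 2203 CPM in control, so the control libraries spanned the others. Dclk1, its kinase relative, gave a log2 fold change of 0.04 for ACS over control and -0.02 for DCS over control.

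Of the transcription factors of regeneration, Klf6 had 33.0, 32.1 and 35.8 CPM in ACS, 26.1, 28.0 and 27.2 CPM in DCS and 31.5, 29.7 and 26.2 CPM in control. ACS lay above both groups, by a log2 fold change of 0.21 over control (adjusted p = 0.165) and 0.31 over DCS (adjusted p = 0.115). Sox11 had 177, 189 and 178 CPM in ACS, 163, 165 and 181 CPM in DCS and 156, 165 and 175 CPM in control, with ACS above control by 0.13 on the log2 scale (adjusted p = 0.223). Klf7 had 106, 109 and 102 CPM in ACS, 95.9, 98.1 and 106 CPM in DCS and 106, 105 and 101 CPM in control, and its interval for ACS over control was -0.10 to 0.13.

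The inhibitory pair gave overlapping groups. Rtn4 had 859, 869 and 882 CPM in ACS, 830, 851 and 897 CPM in DCS and 925, 1011 and 833 CPM in control, a log2 fold change of -0.09 for ACS over control (95% interval -0.23 to 0.06). Its receptor Rtn4r, which sits on the axon, had 24.2, 28.3 and 27.0 CPM in ACS, 26.8, 28.2 and 24.0 CPM in DCS and 21.4, 23.8 and 28.0 CPM in control, a log2 fold change of 0.12 (95% interval -0.12 to 0.36).

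**Figure D5:**
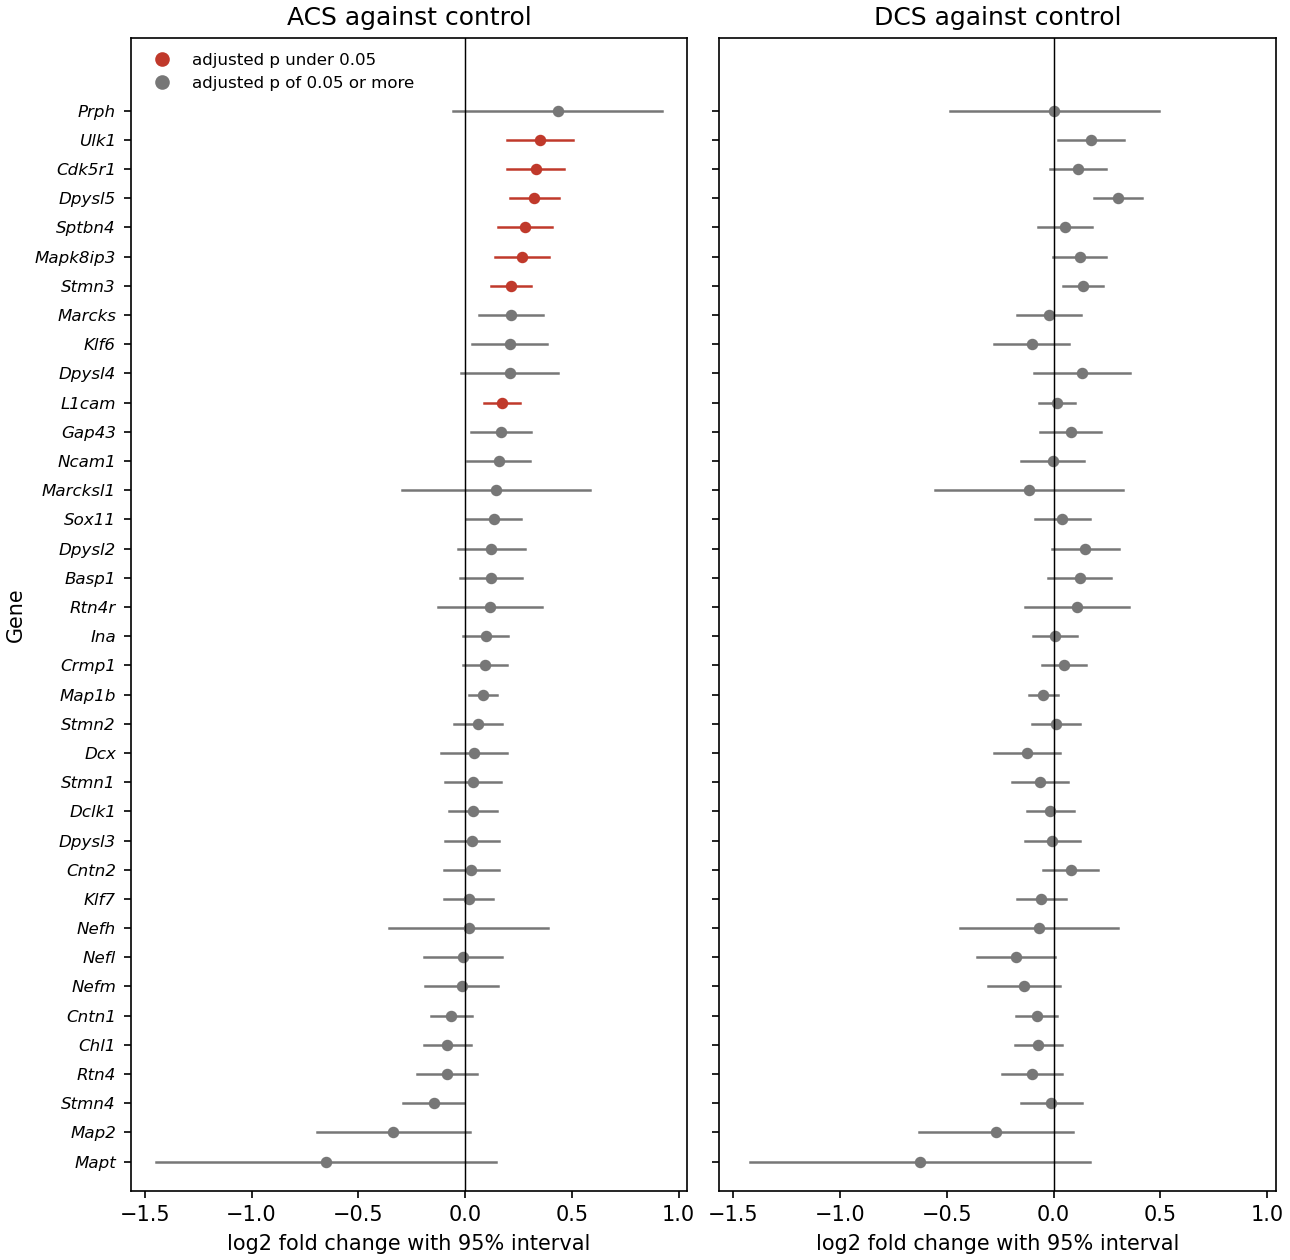
Log2 fold changes of 37 genes (horizontal axes) with 95% intervals for ACS over control (left) and DCS over control (right), in the order of the ACS values. The 7 genes in red passed at an adjusted p under 0.05 and lie between 0.17 and 0.35 for ACS, no gene passed for DCS, and Mapt has the widest interval in both panels.

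Under DCS, none of the 37 genes passed against control, where 0.00614% of all tested genes were higher and as many were lower. At an unadjusted p under 0.05, 3 members were higher (Dpysl5, Stmn3 and Ulk1) and 0 lower, against 4.03% and 3.05% of all tested genes. DESeq2 called 1 member (Dpysl5) and 38 of the 16284 tested genes. The smallest adjusted p of a member was 0.510. The median log2 fold change was -0.003, with 18 of 37 above 0 (50.9% of all tested genes). Without overlap, 2 of 37 lay above control (5.59% of all tested genes) and 1 below (5.51%). All 5 microtubule-associated proteins had values below 0, from -0.63 (Mapt) to -0.02 (Dclk1), and none passed. Some of these values rest on single control libraries. Mapt was at 0.12 without control 1 and Map2 at -0.11 without control 2, and Dclk1 changed sign in 2 refits.

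Set directly against DCS, ACS gave no member past the threshold either, where 0.51% of all tested genes were higher and 0.123% lower. At an unadjusted p under 0.05, 10 members were higher and 0 lower, against 7.22% and 6.66% of all tested genes. DESeq2 called 6 of them (L1cam, Marcks, Klf6, Map1b, Cdk5r1 and Sptbn4). Of the 16284 tested genes it called 660, with 416 higher and 244 lower. ACS lay above DCS without overlap in 11 of 37 (29.7%), against 11.2% of all tested genes, and the median log2 fold change was 0.09. The smallest adjusted p was 0.0798, for Map1b. The log2 fold changes of the 7 genes higher than control ran from 0.02 for Dpysl5 (95% interval -0.09 to 0.14) to 0.23 for Sptbn4 (95% interval 0.10 to 0.35, adjusted p = 0.111). Both current groups were set against the same control libraries.

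Genes of the same pathways outside the 38 were counted from lists in the same fit. These lists too were chosen with earlier results of these data known. For ACS over control, 3 of 19 tested regeneration-associated factors rose and 2 fell, where 2.83% of all tested genes were higher and 1.33% lower. Jun, the AP-1 factor of axon injury, rose by 0.60 on the log2 scale (adjusted p = 0.00223), Myc by 0.43 and Klf9, which restrains axon growth, by 0.38. Socs3, a brake on cytokine signalling, changed by -0.77 (adjusted p = 0.0293) and Creb1 by -0.36. Of 27 entries for microtubule and actin proteins of neurites, 2 rose and 1 fell, against the same shares. Dbn1, the actin-binding drebrin, rose by 0.28 and Map6, which stabilises microtubules, by 0.26. The entry that fell was 1 of 2 that carry the symbol Cttn. It was listed at 0 counts in all 3 ACS libraries, against 3179 to 5707 counts in DCS and control libraries. With 12 counts per library as floor, that is at least 338-fold lower than control. The other Cttn entry had 4723 to 5697 counts in all 9 libraries. Scaled to library size, it had 95.1, 103 and 102 CPM in ACS, 93.5, 89.9 and 78.4 CPM in DCS and 88.3, 83.4 and 79.9 CPM in control. How reads were divided between the 2 entries is uncertain.

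Of 20 kinases and JNK scaffolds that act on tau, microtubule proteins and CRMPs, 1 rose, Cdk5r2 (p39, the other Cdk5 activator), by 0.48 (adjusted p = 0.0184). None of 16 genes of the Nogo receptor complex, 14 neural adhesion molecules, 8 genes of the Ulk1 complex or 13 genes of the axon initial segment passed. At an unadjusted p under 0.05, 2 were higher and 1 lower in the Nogo list, 2 and 1 among adhesion molecules, 0 and 0 in the Ulk1 list and 6 and 1 in the initial segment list, against 10.8% higher and 10% lower over all tested genes. Without overlap, 4 of 16 lay above control and 1 below in the Nogo list, and 3 of 14 above and 1 below among adhesion molecules. In the Ulk1 list 0 of 8 lay above and 1 below, and in the initial segment list 8 of 13 above and 1 below. Over all tested genes 14% lay above and 13% below. For DCS over control 0 genes of these lists passed. By way of scale, 6 early activity genes under ACS had log2 fold changes of 1.18 to 2.63 (median 2.33), against 0.17 to 0.35 for the axon growth genes that passed. The paper had already picked out Fos, Egr1, Nr4a1 and Fosb from its ACS comparison of these data, so this list is high by choice.

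Single markers of cell types passed too, to be read against 2.83% of all tested genes higher and 1.33% lower under ACS. Astrocyte markers summed to 212 to 292 FPKM in ACS, 257 to 264 FPKM in DCS and 262 to 271 FPKM in control. Of the 7, 1 passed under ACS (Gfap, by 0.25), with log2 fold changes above 0 in 5 and below 0 in 2. Slc1a3 had 224 CPM in ACS 1, against 476 and 518 CPM in ACS 2 and ACS 3. Aqp4 had 17.5 CPM in DCS 3 and 17.7 CPM in control 2, against 78.3 to 118 CPM in the other libraries. Microglial markers summed to 47.4 to 49.7 FPKM in ACS, 49.9 to 50.7 FPKM in DCS and 46.2 to 48.0 FPKM in control. Here 1 of 7 passed under ACS (C1qa, by 0.76), with log2 fold changes above 0 in 4 and below 0 in 3. Progenitor and cell division markers had sums of 249 to 267 FPKM in ACS, 280 to 305 FPKM in DCS and 286 to 298 FPKM in control. Under ACS 3 of 8 passed as lower (Hes5 at -1.54, Mki67 at -0.22 and Vim at -0.19), with 5 below 0 and 3 above. Among 8 neuronal markers 1 rose (Rbfox3, by 0.43), with 6 above 0 and 2 below. Of the oligodendrocyte lineage, endothelial and fibroblast markers 0 passed, with 1 lower at an unadjusted p under 0.05, in the oligodendrocyte list. The part of cell makeup in the values above was not tested.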

How the data were processed

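RNA was measured in 9 libraries, 3 per group, grouped as their labels give them, and every column of values was mapped. The authors sequenced polyadenylated RNA with molecular identifiers, aligned reads with HISAT2 (2.0.4 in the submitters' processing notes) and quantified genes with StringTie (1.3.4d). The notes also name cutadapt 1.9 and UMI-tools, and the paper fastp. The paper calls the rat genome GRCh38 and the table names no build, so gene coordinates of the table are not given. The FPKM values were computed by the authors, with zeros written as 0.0001. The estimated counts deposited beside them are whole numbers.

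Counts were scaled by TMM and tested with edgeR 4.0.16 in R 4.3.3 (filterByExpr, minimum count 10, minimum total 15, then a quasi-likelihood F test in 1 fit of 9 libraries), with Benjamini-Hochberg adjustment over 16284 genes of each comparison and a threshold of 0.05. Standard errors and 95% intervals come from that fit. CPM uses TMM-scaled library sizes. The script was tested on simulated data. Alternatives used DESeq2 1.42.0, limma 3.58.1 on log2(FPKM + 1) and log2(FPKM + 0.1), other filters and scaling, counts divided by 4, and each library left out. Each library held 49039412 counts or more, and counting error was not separated from the spread between libraries.

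The 38 members and the other gene lists were chosen with earlier results of these data known. Members were named with values in each library if they passed in any comparison, and Gap43, Sprr1a and up to 4 more per family by smallest p. Of the other lists, up to 4 genes that passed for ACS over control were named by smallest p. Mapt, Map2 and Marcksl1 were set apart after their values were seen. Promoters are RefSeq windows matched by symbol.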

Additional observations from a re-analysis of the deposited data

How the results depend on the processing

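Of 1998 values of single members under alternatives, 89 changed sign, none of them called. For ACS over control, 7 members and 678 genes passed. DESeq2 called 1652 genes. Leaving out 1 library gave 0 to 8 members (0 without ACS 2, and 8 without control 3 or DCS 3) and 138 to 1431 genes. For DCS over control, 0 members and 2 genes passed. DESeq2 called 1 member and 38 genes, limma on log2(FPKM + 1), the fit of only 6 libraries and counts divided by 4 called 1 gene each, and leaving out 1 library gave 0 members and 1 to 47 genes. For ACS over DCS, 0 members and 103 genes passed. DESeq2 called 6 members and 660 genes, and leaving out 1 library gave 0 to 2 members (1 without DCS 3 and 2 without control 3) and 27 to 184 genes.

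The groups share replicate numbers, but same-numbered libraries did not deviate together (correlations of -0.05 to 0.06), so the numbers were not taken as pairs. In ACS with DCS every library correlated best with its own number, a hint from the data and not the design. With the replicate number as a block, 3 members passed for ACS over control (Dpysl5, Cdk5r1 and Stmn3) and 4 calls were lost (adjusted p = 0.0518 for L1cam, 0.0518 for Ulk1, 0.0575 for Sptbn4 and 0.0614 for Mapk8ip3). The block left 1 gene for DCS over control and 59 genes for ACS over DCS.

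Changes of the size seen in the 7 higher genes lay near the threshold, so a member that did not pass is not shown to be unchanged. Nefh and Prph, near 1 FPKM, had the standard errors 0.17 and 0.22.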
